A study of Setaria viridis with 9 samples.

Results

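The transcripts described here encode 5 nuclear-encoded factors that help to assemble the chloroplast NADH dehydrogenase-like (NDH) complex, namely CRR1 (Entrez gene 117840609, SEVIR_9G569900v2), CRR6 (Entrez gene 117859654, SEVIR_6G046500v2), CRR7 (Entrez gene 117857645, SEVIR_5G331700v2), CRR3 (Entrez gene 117846084, SEVIR_2G174900v2) and NDF5 (Entrez gene 117840143, SEVIR_9G091100v2). They were taken by gene identifier, a rule that uses no measured value, and are 5 of the 17987 genes in the deposited table. All 5 passed the filter on low counts. They were measured in leaves of Setaria viridis cv. ME034V-1, a small C4 grass, as polyadenylated RNA in 9 libraries from 3 labelled genotypes of 3 biological replicates each. The WT label stands for unedited plants, ndhO for plants whose NdhO alleles were made null by gene editing, and pgr5 for plants whose PGR5 alleles were. All groups shared the same growth conditions, with 16 h of light at 380 µmol m−2 s−1 and 8 h of dark, 28°C by day and 22°C by night, and leaves were taken 3 to 4 weeks after sowing. The labels do not say how many independent edited lines stand behind the ndhO and pgr5 libraries.

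The NDH complex passes electrons from ferredoxin to plastoquinone around photosystem I and so adds to the proton gradient without net production of NADPH. In C4 grasses that decarboxylate malate with NADP-malic enzyme, it is known to be more abundant in bundle sheath than in mesophyll chloroplasts. Its stromal arm, subcomplex A, and its membrane-bound side arm, subcomplex B, are put together with the help of proteins that are not part of the finished complex. In Arabidopsis, where these roles were worked out, CRR1, CRR6 and CRR7 serve the assembly of subcomplex A in the stroma, while NDF5 and CRR3 serve subcomplex B. The deposited table still describes CRR3 as a probable NDH subunit, as it was first classed, and describes CRR1 as a protein like dihydrodipicolinate reductase. NDF5 is a relative of PnsB2, a subunit of subcomplex B.

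Library totals ran from 11606570 to 18837265 counts. The edited genes were checked first and did not follow the labels. NdhO (LOC117858157), a subunit of subcomplex A, was lowest in the libraries labelled pgr5 2 (20.5 CPM, counts scaled to library size), WT 1 (44.3 CPM) and pgr5 3 (48.4 CPM), and lay between 230.0 and 617 CPM in the other 6. PGR5 (LOC117861247), a thylakoid protein of the other cyclic route, was lowest in the libraries labelled ndhO 1 (38.1 CPM), WT 3 (42.8 CPM) and WT 2 (46.5 CPM), and lay between 249.8 and 389 CPM in the other 6. Null alleles need not lower a transcript, but each WT library was low in 1 of these genes, so the WT label could not be freed of such libraries. The deposited columns may be mislabelled, which was not settled here. Every group below is therefore a set of libraries carrying a label, and each comparison was repeated without each library in turn.

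Of the 5 factors, CRR7 and CRR3 varied at most 1.63-fold over the 9 libraries. The other 3 swung more widely, with much of the swing inside a label. Among the 9557 genes with a mean of at least 10 CPM, the median range from highest to lowest library was 1.70-fold. Genes at 0 in a library were left out of that median. In the shares of tested genes given below, such genes were counted as at least as wide. CRR7 was close to it, and CRR6 (2.72-fold) and NDF5 (3.00-fold) lay above it. CRR1, CRR6 and NDF5 were the factors with wide swings. Their libraries fell in a similar but not identical order (Spearman rho from 0.82 to 0.83), with WT 3 lowest and pgr5 2 next for each. No factor passed the test between labels. The plot of the 5 factors by label shows both features.

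**Figure D1:**
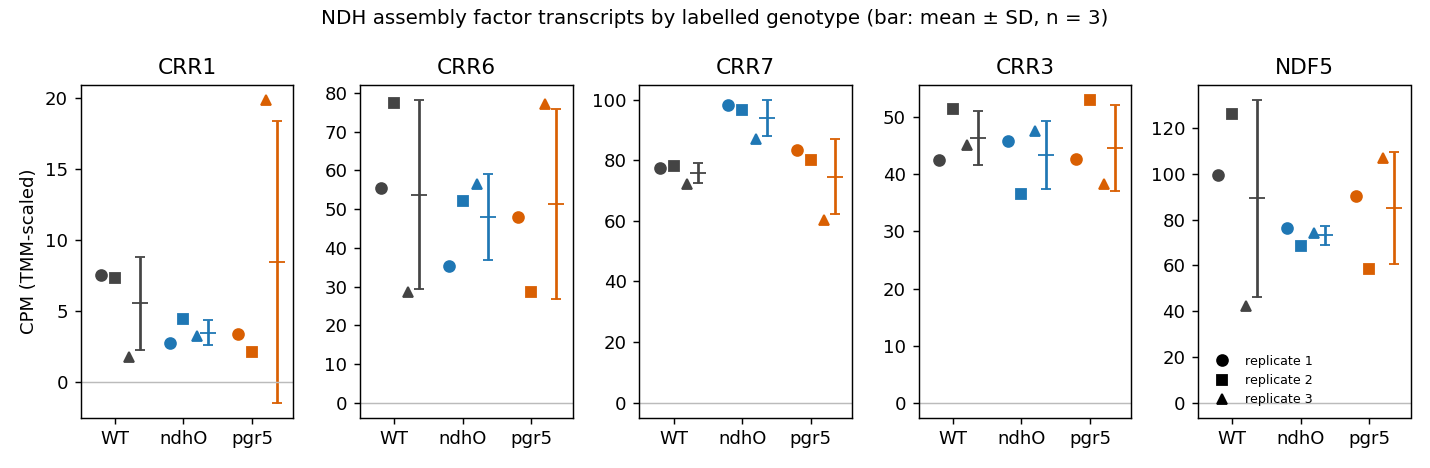
CPM on TMM-scaled library sizes for each assembly factor, with 1 point per library grouped by labelled genotype and a bar for the mean ± SD of 3 libraries. The labels overlap for CRR1, CRR6, CRR3 and NDF5, while the 3 ndhO libraries of CRR7, from 87.1 to 98.2 CPM, lie above the other 6.

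CRR1, a stromal protein that Arabidopsis needs to accumulate subcomplex A, had the fewest counts and the widest spread of the 5. It stood at 7.51, 7.35 and 1.72 CPM in WT 1, 2 and 3, at 2.74, 4.44 and 3.24 CPM in ndhO 1, 2 and 3, and at 3.36, 2.11 and 19.9 CPM in pgr5 1, 2 and 3. The library labelled pgr5 3 was the highest and WT 3 the lowest, 11.6-fold apart, and 14.2% of tested genes had a range at least as wide. That share includes genes at 0 in a library, and for the 30.1-fold range of NdhO it was still 12.6%. The counts behind these ends were 340 in pgr5 3, with an exact Poisson 95% interval of 305 to 378, and 21 in WT 3, with an interval of 13.0 to 32.1. These intervals cover counting error only, and they lie far apart. Within the pgr5 label alone CRR1 differed 9.40-fold and within WT 4.37-fold, against 1.62-fold within ndhO. By label the means were 5.52 ± 3.30 CPM for WT, 3.47 ± 0.870 CPM for ndhO and 8.45 ± 9.91 CPM for pgr5 (SD, n = 3 each).

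CRR6, another stromal factor of subcomplex A, stood at 55.4, 77.3 and 28.5 CPM in WT 1, 2 and 3. It stood at 35.4, 52.1 and 56.5 CPM in ndhO 1, 2 and 3, and at 48.0, 28.6 and 77.3 CPM in pgr5 1, 2 and 3. Its lowest libraries, WT 3 and pgr5 2, were also the lowest for CRR1, and its highest libraries were WT 2 and pgr5 3. The range over 9 libraries was 2.72-fold, which 38.8% of tested genes matched or exceeded. Within WT alone it was also 2.72-fold, and within pgr5 2.71-fold.

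NDF5, the factor related to PnsB2, stood at 99.6, 126 and 42.0 CPM in WT 1, 2 and 3. It stood at 76.5, 68.5 and 74.1 CPM in ndhO 1, 2 and 3, and at 90.2, 58.3 and 107 CPM in pgr5 1, 2 and 3. WT 3 and pgr5 2 were again lowest and WT 2 and pgr5 3 highest. The WT label held both ends of the 3.00-fold range, and the ndhO libraries lay within 1.12-fold of each other. A range of that width or more was found in 34.7% of tested genes.

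CRR7, a small stromal factor of subcomplex A, was steadier. It stood at 77.4, 78.2 and 72.1 CPM in WT 1, 2 and 3, at 98.2, 96.5 and 87.1 CPM in ndhO 1, 2 and 3, and at 83.5, 80.1 and 60.3 CPM in pgr5 1, 2 and 3. All 3 ndhO libraries lay above all 3 WT libraries and all 3 pgr5 libraries, and pgr5 3, where CRR1 was highest, was the lowest. The overall range was 1.63-fold, and 75.9% of tested genes varied as much or more. It was near the median of 1.70-fold for genes with a mean of at least 10 CPM. The ndhO libraries stood clear above both other labels in 1.05% of tested genes, or 188 genes.

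CRR3, assigned to subcomplex B assembly, had the narrowest range, 1.45-fold, and 88.4% of tested genes varied as much or more. It stood at 42.5, 51.6 and 45.1 CPM in WT 1, 2 and 3, at 46.0, 36.7 and 47.6 CPM in ndhO 1, 2 and 3, and at 42.6, 53.1 and 38.4 CPM in pgr5 1, 2 and 3. The labels overlapped throughout. WT 3 and pgr5 2, the lowest libraries for CRR1, CRR6 and NDF5, were not low for CRR3, where pgr5 2 was the highest of all.

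The design sets each edited label against WT. Since NdhO and PGR5 transcripts did not follow the labels, the values below compare labels, and not loss of either gene with its presence. For ndhO against WT, edgeR's quasi-likelihood test called 0 of the 5 factors at an adjusted p of 0.05, as it called 0% of the 17970 genes tested. At an unadjusted p under 0.05 it held 0 of the 5, against 2.74% of all genes (493 genes, or 869 without WT 2). The 0 became 1 in the fit of these labels alone and without pgr5 3, with CRR7, and without WT 3, with NDF5. CRR7 had a log2 fold change of 0.31 (SE 0.15, 95% interval -0.023 to 0.64, unadjusted p = 0.0651, edgeR adjusted p = 1.00), and its libraries were higher in 3 of 3 with no overlap; the labels did not overlap in 8.63% of all genes and were higher without overlap in 4.56%. CRR1 had a log2 fold change of -0.67 with a 95% interval of -2.54 to 1.20, so that neither a large fall nor a rise of 2-fold could be told from no change. It stood at -1.09 without WT 3, at -0.38 without WT 1 and at -0.41 without WT 2. For CRR6 the value was -0.16 (interval -1.11 to 0.78), for NDF5 -0.29 (-1.09 to 0.51) and for CRR3 -0.096 (-0.47 to 0.28). The directions of CRR6, NDF5 and CRR3 turned when 1 library was left out, WT 2 or ndhO 1 for CRR6, WT 2 for NDF5 and ndhO 2 for CRR3.

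Libraries labelled pgr5 were compared with those labelled WT in the same way. edgeR called 0 of the 5 factors and 0% of all genes, and at an unadjusted p under 0.05 it held 0 of the 5 against 2.06% of all genes (371 genes, or 644 without WT 1, 583 without WT 2 and 612 without pgr5 1). CRR7 and CRR3 had log2 fold changes of -0.025 (95% interval -0.36 to 0.31) and -0.054 (-0.43 to 0.32), intervals that leave out a 2-fold change in either direction. CRR6 stood at -0.067 (-1.01 to 0.88) and NDF5 at -0.069 (-0.87 to 0.73). CRR1 stood at 0.61 (-1.23 to 2.45), and this rested on pgr5 3, since without that library the value was -1.01. No factor had labels that did not overlap, against 6.32% of all genes.

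Between the edited labels, pgr5 against ndhO, edgeR again called 0 of the 5 factors and 0% of all genes. At an unadjusted p under 0.05 it held 1 of the 5, CRR7, against 2.67% of all genes (480 genes, or 839 without pgr5 1). CRR7 had a log2 fold change of -0.33 (SE 0.15, 95% interval -0.66 to -0.00177, unadjusted p = 0.0490, edgeR adjusted p = 1.00). Its libraries did not overlap and were lower in 3 of 3; 8.25% of all genes did not overlap between these labels, and 4.1% were lower without overlap. Without pgr5 3 the value was -0.20. CRR1 stood at 1.28 (interval -0.59 to 3.16) and at -0.34 without pgr5 3. CRR6, NDF5 and CRR3 stood at 0.097, 0.22 and 0.042. NDF5 stood at 0.026 without pgr5 3 and at 0.43 without pgr5 2. The contrasts share libraries, so their values are not independent of each other. Tested for a difference anywhere among the 3 labels, edgeR called 0 of the 5 factors and 0% of all genes, and held 0 of the 5 at an unadjusted p under 0.05 against 1.91% of all genes (343 genes, or 520 without WT 2 and 559 without pgr5 1).

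**Figure D2:**
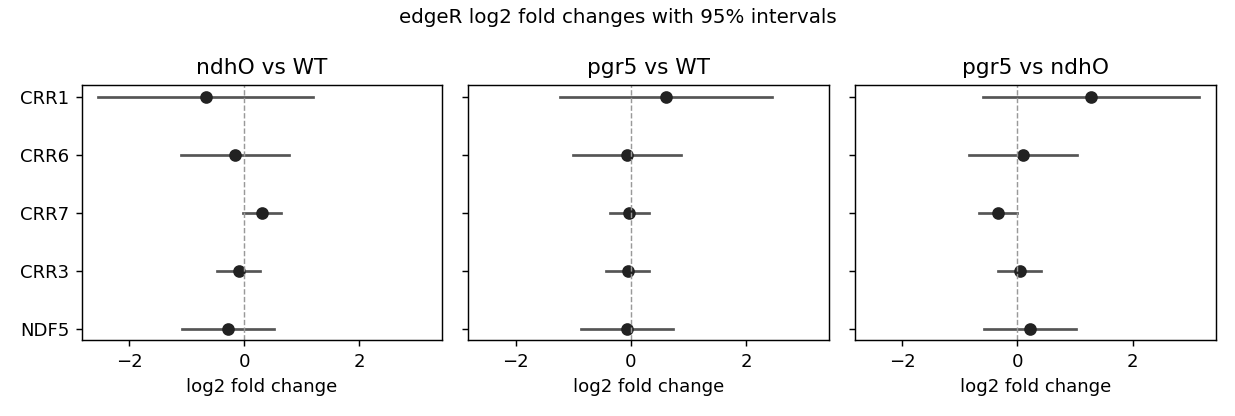
edgeR log2 fold changes of the 5 assembly factors (points) with 95% intervals (lines) in the 3 comparisons of labels. The intervals of CRR1 span from -2.54 to 3.16, while those of CRR7 and CRR3 stay between -0.66 and 0.64.

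DESeq2 and limma-voom also called 0 of the 5 factors in each comparison. Over all genes, DESeq2 called 16 (0.089%) for ndhO against WT, 6 (0.0334%) for pgr5 against WT and 12 (0.0668%) between pgr5 and ndhO, while limma-voom called 0 (0%). The authors' deposited table likewise listed none of the 5 with an adjusted p under 0.05. It listed 451 of 17987 genes so for pgr5 against WT and 0 for ndhO against WT. With so small a share of all genes, 0 of the 5 marks nothing particular to these factors. In the authors' deposited table CRR6 had a log2 fold change of -0.46 for pgr5 against WT (adjusted p 0.564) and CRR3 one of -0.28 (adjusted p 0.347), while CRR7 had 0.36 for ndhO against WT (adjusted p 0.725). The CRR6 and CRR3 values lay farther from 0 than those fitted to the counts. For pgr5 against WT the authors' CRR1 (0.27) and NDF5 (-0.0051) values lay nearer 0 than the fitted ones. Their CRR7 value, 0.12, had the opposite sign to the fitted -0.025. The deposited corrected log2 CPM of CRR6 stood 0.20 above the uncorrected value in WT 1 and 0.20 below it in pgr5 1. For CRR3 the corresponding shifts were 0.10 and -0.11. For both genes, WT 1 to 3 and ndhO 1 and 2 were shifted up, and ndhO 3 and pgr5 1 to 3 were shifted down. In the same columns the value of ndhO 3 equalled the mean of ndhO 1 and 2 for all 17987 genes (tolerance 1e-06), so for these factors it is not a measurement independent of the other ndhO libraries, and the corrected values entered no test here.

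How the factors vary among themselves was asked across all 9 libraries, whatever the label, on log2 CPM. Of 10 pairs, 3 were correlated after Benjamini-Hochberg adjustment of exact permutation p-values (two-sided, all pairings), and they joined CRR1, CRR6 and NDF5. The share of such pairs among genes in general was not computed, so the count has no background and marks nothing particular to these factors. CRR1 and CRR6 had Pearson r = 0.87 (exact permutation p = 0.00122, adjusted 0.0120) and Spearman rho = 0.83 (exact permutation p = 0.00827, adjusted 0.0359). CRR6 and NDF5 had r = 0.86 (exact permutation p = 0.00240, adjusted 0.0120) and rho = 0.82 (exact permutation p = 0.0108, adjusted 0.0359). CRR1 and NDF5 had r = 0.80 (exact permutation p = 0.0102, adjusted 0.0341) and rho = 0.83 (exact permutation p = 0.00827, adjusted 0.0359). Without the 2 libraries farthest from the median of the first gene, r was 0.94, 0.71 and 0.88 for these pairs in turn. For CRR6 and NDF5, where those libraries were WT 3 and pgr5 2, the exact permutation p was then 0.0734, so that pair rests in part on them.

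The pairs depended on single libraries for their calls. Without WT 3, the lowest library for all of CRR1, CRR6 and NDF5, 0 pairs passed, with adjusted exact permutation p-values of 0.0636 for CRR1 with CRR6, 0.0636 for CRR6 with NDF5 and 0.0662 for CRR1 with NDF5. Without WT 2, 1 pair passed, CRR1 with CRR6. Over all libraries left out in turn, r stayed between 0.83 and 0.91 for CRR1 with CRR6, between 0.82 and 0.90 for CRR6 with NDF5 and between 0.76 and 0.87 for CRR1 with NDF5. The CRR1 and NDF5 pair passed in 4 of those 9 settings. Many other genes were closer: CRR6 ranked 116th and CRR1 348th in likeness to NDF5, counted against the 9556 genes with a mean of at least 10 CPM. In likeness to CRR6, CRR1 ranked 408th and NDF5 431st, counted against 9556 such genes. In likeness to CRR1, CRR6 ranked 204th and NDF5 548th, counted against 9557.

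CRR7 and CRR3 joined none of these pairs. Their r with each other was 0.087, and with CRR1, CRR6 and NDF5 it lay between -0.55 (CRR7 with CRR1) and -0.097 (CRR3 with NDF5), with adjusted exact permutation p-values from 0.320 to 0.823. The r of CRR7 with CRR1 was 0.017 without pgr5 3 and -0.79 without WT 3. With a library left out, r ran from -0.40 to 0.49 for CRR7 with CRR3. Over the remaining pairs of CRR7 or CRR3, with CRR7 and CRR1 set aside, it ran from -0.68 to 0.11. Of all pairs of CRR7 or CRR3, 0 passed in any of the 9 settings. Over 9 libraries, an r of this size has a wide error, and no lack of relation is shown. Without the 2 libraries farthest from the median of the first gene, here WT 3 and pgr5 2, CRR6 with CRR7 had r = -0.78. The exact permutation p was 0.0381, not adjusted. In the same check the other pairs of CRR7 or CRR3 lay between -0.53 (CRR7 with CRR3) and 0.23 (CRR1 with CRR7).

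**Figure D3:**
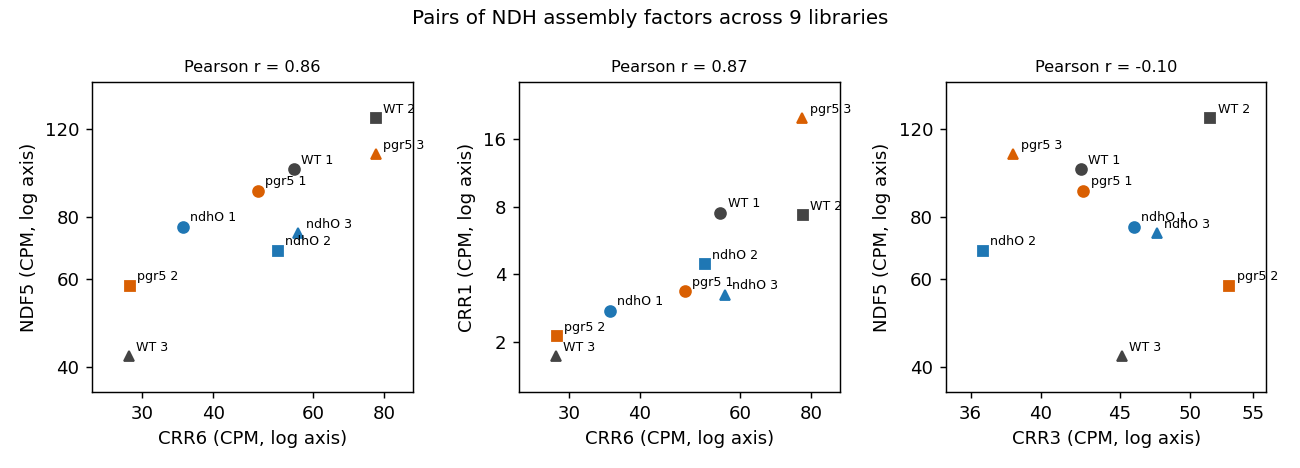
CPM of CRR6 against NDF5, CRR6 against CRR1 and CRR3 against NDF5, 1 point per library on log axes, with colour for the label and r computed on log2 CPM. WT 3 and pgr5 2 sit at the low end for CRR6, NDF5 and CRR1, and the third panel shows no such line (r = -0.097).

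Ratios within a library do not depend on how libraries were scaled. NDF5 had 2.34, 2.45 and 0.931 counts for each CRR3 count in WT 1, 2 and 3, 1.66, 1.87 and 1.56 in ndhO 1, 2 and 3, and 2.12, 1.10 and 2.78 in pgr5 1, 2 and 3. The ratio was lowest in WT 3 and pgr5 2, as the scaled NDF5 level was. It was highest in pgr5 3, whereas the scaled NDF5 level was highest in WT 2. The ratio of CRR6 to NDF5, both of which swung, varied 1.65-fold over the 9 libraries. The ratios of CRR1 to CRR6 and to NDF5, which also swung, varied 4.48-fold and 5.19-fold, and that of CRR1 to CRR3 13.6-fold.

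The other genes of the complex were read beside the factors. Of 17 genes for NDH subunits, 0 passed edgeR's test in either direction in any comparison, and their median log2 fold changes were -0.016 for ndhO and -0.0033 for pgr5 against WT and 0.044 between pgr5 and ndhO. The corresponding medians were -0.16, -0.054 and 0.097 for the 5 factors and -0.0038, 0.0032 and 0.010 for all genes. The 2 genes described as PAM68-like, a family that in Arabidopsis has members in photosystem II and in NDH assembly, also held 0 called genes. By library, the subunits were lowest in WT 3, with a median of -0.58 relative to each gene's mean over the 9 libraries (log2), in pgr5 2 (-0.51) and in ndhO 1 (-0.36). They were highest in WT 2 (0.42) and pgr5 3 (0.32). CRR6 had -0.75, -0.75 and -0.44 in those low libraries, and 0.69 in each of WT 2 and pgr5 3.

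**Figure D4:**
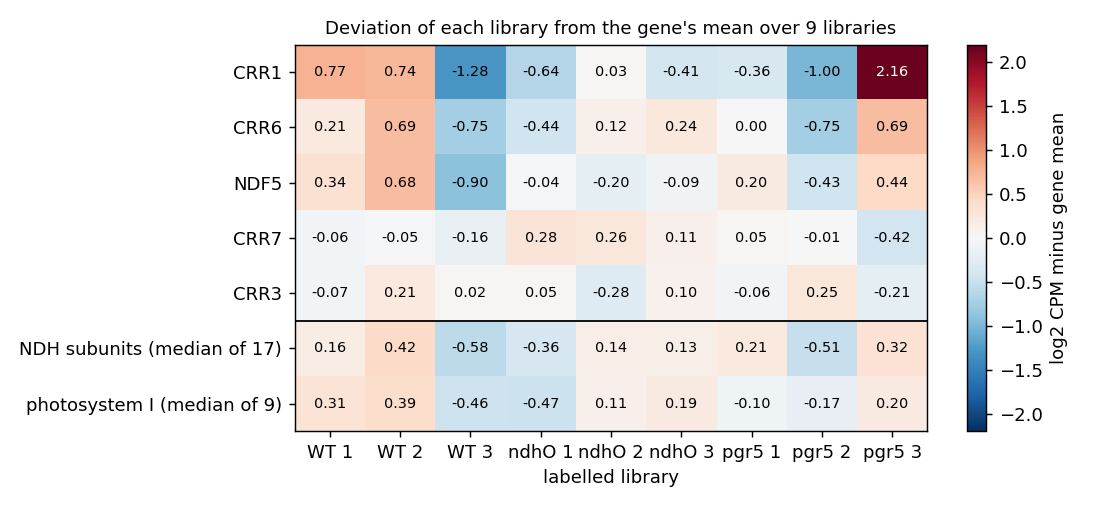
Log2 CPM minus the gene's mean over 9 libraries, for the 5 assembly factors and, under the line, the medians of 17 NDH subunit genes and 9 photosystem I genes. CRR1, CRR6 and NDF5 are below 0 in WT 3, ndhO 1 and pgr5 2, as the NDH and photosystem I medians are, whereas CRR3 is at or above 0 there. NDF5 is only just below 0 in ndhO 1 (-0.040). It is lower in ndhO 2 (-0.20) and ndhO 3 (-0.086), where the NDH medians are 0.14 and 0.13.

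Likeness to the subunits was measured as Pearson r of log2 CPM over the 9 libraries, as a description. The median r with the 17 subunit genes was 0.89 for CRR6, 0.81 for NDF5 and 0.71 for CRR1, where the median with all genes of at least 10 CPM was -0.059 for CRR6 and NDF5 and -0.055 for CRR1. The median r with 9 photosystem I genes was 0.86 for CRR6, 0.76 for NDF5 and 0.73 for CRR1. The median r with the subunit genes was -0.096 for CRR7 and for CRR3 -0.25. The subunits most like CRR6 were NdhL (r = 0.98), a membrane-bound subunit, and then PnsL5 and PnsB2 (r = 0.96 each). For NDF5 they were PnsB5 (LOC117856781, r = 0.97), the subunit gene with the most reads, and PnsL4 (LOC117849018, r = 0.96), a lumenal subunit. Both were among the 3 genes most like NDF5 of 9556. PnsB2 (LOC117838176), the relative of NDF5, had r = 0.87 with it and stood at 238 ± 138 CPM in WT, 187 ± 64.7 in ndhO and 238 ± 108 in pgr5 (SD, n = 3 each). NdhT ran against CRR1 (r = -0.75), and NdhO, with a 30.1-fold range, was like none of the factors beyond r = 0.48 (CRR7). Next to NdhO, PnsL3 had the widest range of the subunit genes, 4.40-fold, and r = 0.92 with NDF5. NdhO was low and CRR1 was at its second lowest and at its highest in pgr5 2 and pgr5 3.

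**Figure D5:**
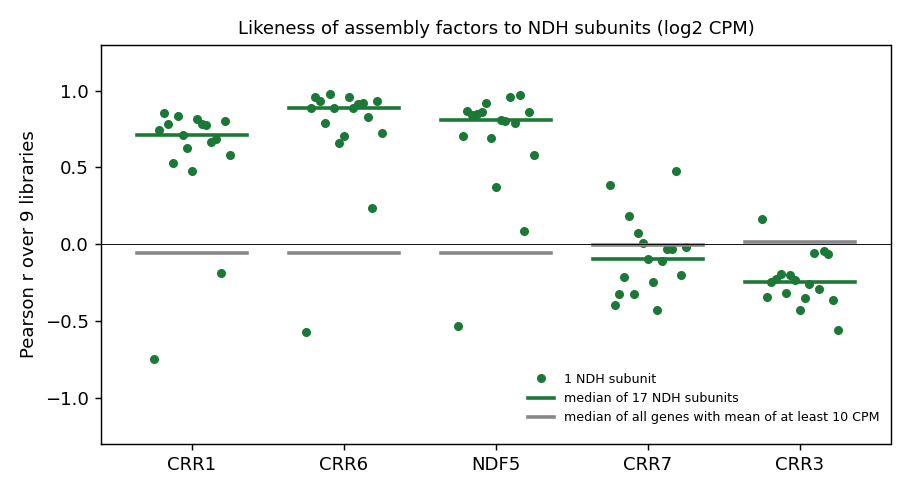
Pearson r over 9 libraries between each assembly factor and each of 17 NDH subunit genes (points), with the median over the subunits and over all genes with a mean of at least 10 CPM (lines). Medians over the subunits are 0.71, 0.89 and 0.81 for CRR1, CRR6 and NDF5, and -0.096 and -0.25 for CRR7 and CRR3.

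Outside the complex, the 3 genes most like each factor were taken among those with a mean of at least 10 CPM. For CRR6 they were a chloroplast and mitochondrial lysine-tRNA ligase (LOC117841018, r = 0.99), the ribosome-binding ATPase YchF (LOC117837598, r = 0.99) and outer envelope pore protein 16-3 (LOC117835749, r = 0.99). For CRR1 they were a DEAD-box RNA helicase 52C-like gene (LOC117834114, r = 0.97), a ribosomal RNA methyltransferase-like gene (LOC117837677, r = 0.97) and a probable chloroplast adenylate kinase (LOC117836357, r = 0.96). Besides the subunits named above, NDF5 was most like the uncharacterized LOC117838371 (r = 0.97). CRR3 was most like ABC transporter I family member 10 (LOC117859282, r = 0.97), a PTI1-like tyrosine-protein kinase (LOC117844940, r = 0.93) and an F-box/WD-40 gene (LOC117852868, r = 0.91). CRR7 was most like a mitochondrial 3-hydroxyisobutyrate dehydrogenase-like gene (LOC117857328, r = 0.91), an ECERIFERUM 26-like gene (LOC117863681, r = 0.90) and a lipid-transfer protein gene (LOC117862450, r = 0.90). With 9 libraries and 9556 or 9557 genes searched, the highest r found says nothing of a shared role or control.

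For each factor, the nearest gene on each side that has a row in the deposited table was taken as its neighbour. On both sides of CRR6 and on 1 side of CRR3, 2 annotated genes without a row lay between. The r of the factors with these neighbours ran from -0.35 (CRR3 with the Mediator subunit 25 gene LOC117844785) to 0.59 (NDF5 with the PHD finger gene LOC117840144). CRR1, with its 11.6-fold range, lay between a U-box gene (LOC117840606) and an F-box gene (LOC117840608) with ranges of 1.84-fold and 1.60-fold. None of these neighbours overlapped a factor in the RefSeq annotation.

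Photosystem I and cell type markers were read in the same libraries. Photosystem I genes, 9 in number, had medians of -0.46 in WT 3, -0.47 in ndhO 1 and -0.17 in pgr5 2, against 0.39 in WT 2 and 0.20 in pgr5 3 (log2, relative to each gene's mean). The summed CPM of 5 bundle sheath markers, led by NADP-malic enzyme, was lowest in ndhO 1 (13970) and WT 3 (14522) but stood at 19742 in pgr5 2. It ran from 14522 to 22698 in WT, from 13970 to 18588 in ndhO and from 19742 to 21865 in pgr5. The sum of 4 mesophyll markers, led by pyruvate, phosphate dikinase, ran from 70446 to 84432, from 67097 to 94706 and from 64074 to 85244 in the same labels. WT 3, where CRR1, CRR6 and NDF5 were lowest, had the highest mesophyll sum of the WT libraries (84432). The sums of pgr5 2 (64074) and pgr5 3 (66944), low and high for these factors, were similar. The bundle sheath markers did not all move together. Of the pgr5 libraries, pgr5 2 had the lowest ribulose bisphosphate carboxylase small chain (3572 CPM) and phosphoribulokinase (1497 CPM). It had the highest NADP-malic enzyme (12442 CPM), which leads the sum. Rubisco activase and phosphoenolpyruvate carboxykinase in pgr5 2 lay between their levels in pgr5 1 and pgr5 3. The mesophyll markers did not move together either. Of the WT libraries, WT 3 had the highest pyruvate, phosphate dikinase (49093 CPM) and NADP-malate dehydrogenase (3348 CPM). It had the lowest phosphoenolpyruvate carboxylase (25093 CPM) and carbonic anhydrase (6899 CPM). Phosphoenolpyruvate carboxylase stood at 19394 CPM in pgr5 2 and 26320 CPM in pgr5 3. Sums of 3 epidermal and cuticle markers were 1054 to 1787 in WT, 1362 to 2001 in ndhO and 854 to 1717 in pgr5. Sums of 3 markers of dividing cells were 84.8 to 100.4, 88.8 to 100.1 and 82.0 to 96.4 in these labels, highest in WT 3. None of these 15 markers was at 0 in any library. In whole leaf, fewer cells of a type and less RNA per cell cannot be told apart, and the part of cell makeup in these levels was not tested. WT 3 and pgr5 2 also had the lowest totals, 11606570 and 12334320 counts. WT 2, the library with the next lowest total (13641341), had the highest NDF5 level and the highest subunit median. The part of library size in these levels was not tested.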

How the data were processed

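Polyadenylated leaf RNA was sequenced as 150 bp paired-end reads from stranded libraries, per the labels' protocols. Tools named in the submitters' processing notes are limma 3.62.2, edgeR 4.4.1, StringTie 2.2.3, FastQC 0.11.9 and Trim Galore 0.6.7. No aligner or genome build is named there, and no coordinates are printed. The authors deposited whole-number counts for each gene, which were used unchanged. Per the file headers they also deposited corrected log2 CPM and log2 fold changes, p-values and adjusted p-values against WT, quoted as the authors' own. The deposited t and B statistics are a score and were not used. Columns were matched to samples by label and last number. The ndhO and pgr5 columns carry a further number that is not explained in the sources used here.

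These counts were analysed with edgeR 4.0.16 (R 4.3.3). The fit used all 9 libraries, TMM factors, the default low-count filter (17970 of 17987 genes kept), robust quasi-likelihood tests and Benjamini-Hochberg adjustment over all genes tested at 0.05. The common biological coefficient of variation was 0.383. Levels are CPM on TMM-scaled library sizes. Correlations used log2 CPM with a prior count of 2. CPM is not corrected for gene length, so levels of different genes are not compared. An exact permutation test of 3 against 3 libraries cannot reach 0.05, so none was used between labels. The procedure was tested on simulated data. Alternatives were other scalings, no filter, DESeq2 1.42.0, limma-voom 3.58.1, a threshold of 0.1, fits of 2 labels, leaving out each library and a replicate block. RefSeq identifiers (assembly GCF_005286985.2) matched 17558 genes and served for neighbours only. Near-identical gene copies may share reads.

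The members and lists were chosen with earlier results of these data known. Genes named besides the members are the edited genes, the NDH subunit genes with the most reads or widest range, PnsB2, the 3 genes most like each factor, the nearest neighbours with a row and the cell type markers. Other NDH genes were named after their values were seen.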

Additional observations from a re-analysis of the deposited data

How the results depend on the processing

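The count of assembly factors called stayed at 0 in every comparison under all alternatives run. The count of all genes called was 0 except with DESeq2, which called 16 for ndhO against WT, 6 for pgr5 against WT, 12 between pgr5 and ndhO and 7 for any difference among labels. Of 120 log2 fold changes under alternatives other than a left-out library, 119 kept their direction. The exception was NDF5 for pgr5 against WT with limma-voom, at 0.029. Of 135 with a library left out, 116 kept it and 19 turned, with a lowest adjusted p of 0.980. For ndhO against WT these ran from -0.47 to 0.21 for CRR6, from -0.16 to 0.016 for CRR3 and from -0.63 to 0.055 for NDF5. For pgr5 against WT they ran from -1.01 to 1.06 for CRR1, from -0.49 to 0.30 for CRR6, from -0.12 to 0.11 for CRR7, from -0.20 to 0.044 for CRR3 and from -0.41 to 0.27 for NDF5. For pgr5 against ndhO they ran from -0.34 to 1.73 for CRR1, from -0.32 to 0.38 for CRR6 and from -0.099 to 0.14 for CRR3. The number of correlated pairs, 3, was 3 with a prior count of 0.5 and with library totals, and ran from 0 to 3 with a library left out. Replicate numbers showed no sign of pairing the libraries. Deviations from label means had correlations from -0.38 to 0.063 between same-numbered libraries and from -0.22 to 0.32 between different-numbered ones. Since the columns may be mislabelled, a pairing could be missed. With the replicate block, 0 genes were called in each comparison, and 325, 246, 280 and 186 genes had an unadjusted p under 0.05 for ndhO against WT, pgr5 against WT, pgr5 against ndhO and any difference. The 1 factor at an unadjusted p under 0.05 for pgr5 against ndhO, CRR7, became 0 with upper quartile scaling, with library totals, in the fit of those labels alone and without any 1 of WT 1, 2 or 3, ndhO 1 or 2, or pgr5 2 or 3. Depth limits CRR1 most, whose lowest library held 21 counts.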
